A study of Mus musculus with 17 samples.

Results

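The apical junction and polarity genes described here are Pard3, Prkci, Prkcz, Cdh1, Cdh2, Ctnna1, Ctnnb1, Afdn, Celsr1 and Dsp. They were chosen by name, as all probe sets whose annotation gives 1 of these symbols, which made 25 of the 45101 probe sets on the array and 10 of the 18193 genes tested. Every array held embryonic cortex cells of hGFAP-eGFP mice, sorted on their green fluorescent protein (GFP), which the transgene puts under the human GFAP promoter. The 5 groups were GFP-positive Prominin-selected cells at embryonic day 18 (E18, n = 4), GFP-high Prominin-selected cells at embryonic day 14 (E14, n = 4), GFP-low Prominin-selected cells at E14 (n = 3), GFP-high cells at E14 (n = 3) and GFP-low cells at E14 (n = 3). The labels name no Prominin gate for the last 2 groups, which are called ungated here, and the Prominin-selected ones gated. All groups carry the transgene, so GFP level is a readout of that promoter and not of a cell type by itself, and the labels do not say how many embryos went into a sample.

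Radial glia, the progenitor cells of the embryonic cortex, are polarised epithelial cells whose apical endfeet line the ventricle and are held together by adherens junctions. N-cadherin (Cdh2) spans these junctions, and its tail binds β-catenin (Ctnnb1), which recruits αE-catenin (Ctnna1) and with it the actin belt. Afadin (Afdn) ties the neighbouring nectin adhesions to actin. The scaffold Par3 (Pard3) and the atypical protein kinases C iota (Prkci) and zeta (Prkcz) set up the apical domain, and the atypical cadherin Celsr1 belongs to the planar polarity pathway, which aligns cells within the sheet. E-cadherin (Cdh1) is the cadherin of most other epithelia, and desmoplakin (Dsp) anchors intermediate filaments at desmosomes.

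Levels are log2 of the deposited intensity plus 16, quantile-normalised over the 17 arrays. An intensity of 0 therefore lies at 4 before normalization, and the median gene at 6.29. A gene is represented by its brightest probe set unless a probe set is named. Differences are given with their standard error (SE) and with the p-value of limma adjusted over all genes, and a gene is called changed where that is under 0.05. A fold is given only where both group means lie above the median gene. Levels of different probe sets are not comparable, and an ID ending in _s_at or _x_at marks one whose probes may match more than 1 transcript. A log2 difference on this scale understates the change of dim genes. In sorted bulk cells, fewer cells of a type and less RNA per cell cannot be told apart.

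The array labels and the sort were checked on marker genes. The radial glia list includes Prom1, the gene of Prominin, so that marker is not independent of the Prominin gate. Of 12 radial glia markers, 11 lay above the median gene at E18, 12 in gated GFP-high cells, 12 in gated GFP-low cells, 12 in ungated GFP-high cells and 10 in ungated GFP-low cells. Their summed intensity was 9860 to 13566 on the E18 arrays, 12645 to 17315 and 8850 to 10112 in gated GFP-high and GFP-low cells, and 29842 to 38861 and 6118 to 8613 in ungated GFP-high and GFP-low cells. That of 12 postmitotic neuron markers was 24011 to 26963 at E18, 12170 to 14392 and 21537 to 23394 in the gated pair, and 10178 to 10721 and 38412 to 59189 in the ungated pair, each with GFP-high first. Both lists therefore move with the GFP gate, more without the Prominin gate than with it, and their part in the members' differences was not tested. The E14 groups also differ in labelling: 12 arrays, all gated ones and ungated GFP-high replicate 1, were labelled with a MessageAmp kit and the other 5 with an Affymetrix kit. The 3' minus 5' log2 difference of the Gapdh control probe sets, a measure of how far labelling favours transcript ends, was −0.21 to 1.00 at E18, 0.54 to 1.70 and 0.92 to 2.29 in gated GFP-high and GFP-low cells, and −0.21 to −0.19 and −0.25 to 0.18 in ungated GFP-high and GFP-low cells.

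Promoter windows of 300 bases are shown for Prkcz, whose probe sets went in opposite directions between ages, and for Dsp, the member that stood out in a single group. The RefSeq table for GRCm38.p6 lists 6 of the 10 members, with 3 starts for Prkcz, 15639 and 16679 bases downstream of the first for the later 2. In rodent brain an internal Prkcz promoter is known to give PKM-zeta, the kinase domain without the regulatory domain. Capitals mark the GC box GGGCGG on either strand. It occurs in 35.7% of the 32851 windows in the table.
Prkcz, first start, minus strand of chr4:155361379-155361678: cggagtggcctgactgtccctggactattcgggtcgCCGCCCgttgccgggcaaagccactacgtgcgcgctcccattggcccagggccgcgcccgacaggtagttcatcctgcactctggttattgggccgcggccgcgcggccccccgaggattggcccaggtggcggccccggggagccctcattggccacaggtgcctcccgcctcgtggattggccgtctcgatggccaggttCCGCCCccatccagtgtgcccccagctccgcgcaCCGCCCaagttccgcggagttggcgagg
Prkcz, second start, minus strand of chr4:155345740-155346039: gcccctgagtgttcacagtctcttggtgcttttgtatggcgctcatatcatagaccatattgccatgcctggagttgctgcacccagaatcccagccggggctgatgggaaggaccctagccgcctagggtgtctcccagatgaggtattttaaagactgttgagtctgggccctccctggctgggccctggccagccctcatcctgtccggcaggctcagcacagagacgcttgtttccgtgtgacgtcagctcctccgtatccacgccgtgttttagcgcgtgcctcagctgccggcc
Prkcz, last start, minus strand of chr4:155344700-155344999: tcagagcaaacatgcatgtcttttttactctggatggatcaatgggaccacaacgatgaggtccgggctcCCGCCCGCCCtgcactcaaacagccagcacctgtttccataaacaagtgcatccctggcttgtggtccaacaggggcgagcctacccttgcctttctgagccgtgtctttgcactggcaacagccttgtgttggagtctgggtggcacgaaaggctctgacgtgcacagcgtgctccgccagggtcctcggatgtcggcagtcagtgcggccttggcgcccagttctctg
Dsp, plus strand of chr13:38151044-38151343: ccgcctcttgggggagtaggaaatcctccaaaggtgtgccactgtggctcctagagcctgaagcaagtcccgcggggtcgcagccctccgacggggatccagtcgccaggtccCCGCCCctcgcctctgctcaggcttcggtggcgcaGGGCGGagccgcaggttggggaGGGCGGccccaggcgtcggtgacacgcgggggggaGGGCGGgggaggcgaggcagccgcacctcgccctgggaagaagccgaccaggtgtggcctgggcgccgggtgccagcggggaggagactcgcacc
The first Prkcz window held 3 GC boxes and 31 CpG dinucleotides, the second 0 and 13, and the last 2 overlapping boxes and 14. The Dsp window held 4 GC boxes and 27 CpGs, against a median of 7 CpGs over all windows. None of these 4 windows held the TATA box TATAAA on either strand, which 13.6% of all windows hold. These matches describe the letters only. Which start each Prkcz probe set reads was not examined.

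**Figure D1:**
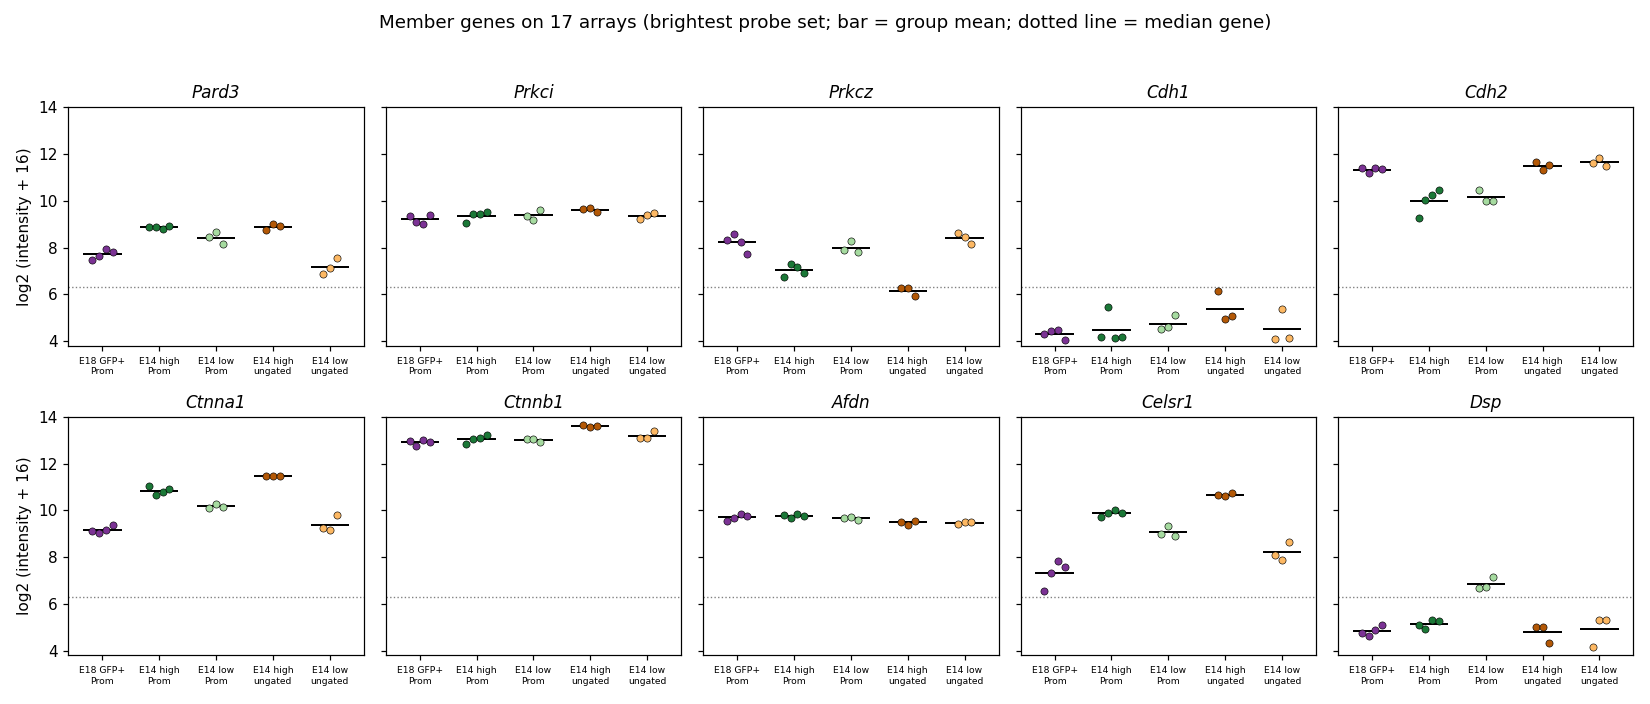
Level of each of the 10 genes on every array, as log2 of intensity plus 16 (y axis), by group (x axis); points are arrays, bars are group means and the dotted line is the median gene at 6.29. Ctnna1 and Celsr1 are highest in ungated GFP-high cells and lowest at E18, Prkcz runs the other way across the GFP gate, Dsp exceeds the median gene in gated GFP-low cells only, and Cdh1 lies below it everywhere.

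Among ungated E14 cells, the GFP-high group had more Pard3, Ctnna1 and Celsr1 RNA and less Prkcz RNA than the GFP-low group. These 4 of 10 members were called, 3 higher and 1 lower, where 15.8% of all genes were called. The members' median log2 difference was 0.33, against −0.01 over all genes.

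Celsr1 had levels of 10.67, 10.61 and 10.74 in ungated GFP-high cells, against 8.10, 7.86 and 8.66 in ungated GFP-low cells. The groups did not overlap, and the log2 difference was 2.47 ± 0.24 (SE, 5.54-fold higher, adjusted p = 0.00103). For Ctnna1 the levels were 11.47, 11.46 and 11.49 in GFP-high cells, against 9.24, 9.16 and 9.78 in GFP-low cells. The GFP-high arrays spread less than the GFP-low ones (SD 0.01 and 0.34), and the difference was 2.08 ± 0.21 (4.23-fold higher, adjusted p = 0.00119). Pard3 had 8.73, 9.02 and 8.94 in GFP-high cells, against 6.89, 7.12 and 7.54 in GFP-low cells, a difference of 1.71 ± 0.22 (3.28-fold higher, adjusted p = 0.00272). All 4 Pard3 probe sets rose, by 1.34 to 1.71, so this did not rest on the choice of probe set.

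Prkcz went the other way, with 6.26, 6.28 and 5.94 in ungated GFP-high cells, against 8.63, 8.47 and 8.13 in ungated GFP-low cells. All 3 GFP-high arrays were below the median gene and all 3 GFP-low arrays above it, with a log2 difference of −2.25 ± 0.21 (adjusted p = 0.000895). Its close relative Prkci, the other atypical protein kinase C, had 9.63, 9.71 and 9.50 in GFP-high cells and 9.23, 9.39 and 9.48 in GFP-low cells, a difference of 0.25 ± 0.17 (adjusted p = 0.418). The other adherens junction members did not pass the test. Ctnnb1 differed by 0.42 ± 0.17 (adjusted p = 0.164), Cdh2 by −0.14 ± 0.19 (adjusted p = 0.707) and Afdn by 0.02 ± 0.16 (adjusted p = 0.961). At the level of probe sets 10 of 25 were higher and 2 lower, where 11.7% of all probe sets were called. The higher ones included 2 further Ctnnb1 probe sets, 1430533_a_at at 1.23 ± 0.26 (adjusted p = 0.022 over probe sets) and 1450008_a_at at 0.89 ± 0.21 (0.0364). The gene's brightest probe set moved the same way, by the 0.42 given above, without being called.

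In this comparison the labelling kits split the GFP-high group, with replicate 1 alone carrying the MessageAmp label. With the kit as a term, which leaves the contrast to the 5 arrays of the Affymetrix kit, the same 4 genes were called: Pard3 at 1.80, Prkcz at −2.30, Ctnna1 at 2.08 and Celsr1 at 2.47. The MessageAmp kit held 1 ungated group only and gives no value of its own.

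Among gated E14 cells the same contrast was smaller for these genes, and another gene stood out. Of the 10 members 3 were called, Ctnna1 higher and Prkcz and Dsp lower in GFP-high cells, where 1.68% of all genes were called. Of the 25 probe sets 0 were higher and 2 lower, both of Dsp, where 0.592% of all probe sets were called. An unadjusted limma p was under 0.05 for 9 of the 25. No share of all probe sets or genes at that unadjusted threshold is given here or below. The members' median difference was 0.02, against −0.01 over all genes.

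Dsp had levels of 5.11, 4.93, 5.33 and 5.26 in gated GFP-high cells, against 6.68, 6.75 and 7.17 in gated GFP-low cells. Every GFP-low array was above the median gene and every GFP-high array below it. The log2 difference was −1.70 ± 0.18 (adjusted p = 0.00225). A second probe set, 1435493_at, gave −1.87 ± 0.21 (adjusted p = 0.00529 over probe sets), while 1427610_at lay at 4.11 to 4.94 on the 7 arrays. In the other groups Dsp lay at 4.63 to 5.10 at E18, 4.35 to 5.02 in ungated GFP-high cells and 4.16 to 5.32 in ungated GFP-low cells. Apart from gated GFP-low cells, all neighbouring groups in the order of means overlapped.

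Markers of Cajal-Retzius cells, the reelin-secreting early neurons of the marginal zone, moved with Dsp. Of 9 such markers 6 were lower in gated GFP-high than in gated GFP-low cells (Reln, Trp73, Lhx1, Ndnf, Ebf3 and Calb2) and 0 higher. Their summed intensity was 933 to 1633 at E18, 695 to 907 in gated GFP-high and 3647 to 5197 in gated GFP-low cells, 263 to 288 in ungated GFP-high and 460 to 648 in ungated GFP-low cells. Reln, which had the highest mean of the 9 in every group, makes the largest part of this sum. It was at 8.88 to 9.36 in gated GFP-high cells, against 11.62 to 12.03 in gated GFP-low cells. The part of these markers in the Dsp difference was not tested. Other lists moved in this contrast too. Of 12 postmitotic neuron markers 6 were lower in gated GFP-high cells, of 9 meninges and pericyte markers 1 and of 7 astroglia markers 1, with 0 higher. Of 12 radial glia markers 3 and of 7 basal progenitor markers 1 were higher, with 0 lower. Of 10 epithelium markers 0 had a group mean above the median gene in any group. Among 10 choroid plexus and cortical hem markers, only Rspo3 was called in this contrast (log2 difference −1.89 ± 0.17, adjusted p = 0.000928), and Ttr, a defining choroid plexus gene, averaged 4.93 in GFP-high and 4.73 in GFP-low cells. Of the 10 other desmosome genes listed, limma called 0, and 2 had an unadjusted p under 0.05.

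Ctnna1 had 11.06, 10.66, 10.77 and 10.91 in gated GFP-high cells, against 10.09, 10.29 and 10.14 in gated GFP-low cells. The groups did not overlap and differed by 0.68 ± 0.15 (1.60-fold higher, adjusted p = 0.0476). Prkcz had 6.74, 7.30, 7.17 and 6.93 in gated GFP-high cells and 7.90, 8.26 and 7.82 in gated GFP-low cells, without overlap and with a difference of −0.96 ± 0.22 (1.94-fold lower, adjusted p = 0.0471). Both calls were lost when any 1 of the 7 arrays was left out, with adjusted p of 0.0534 to 0.142 for Ctnna1 and 0.0531 to 0.155 for Prkcz, while Dsp was called in all 7 such fits (0.00496 to 0.0175). Celsr1 had 9.72, 9.88, 10.03 and 9.89 in gated GFP-high cells, against 8.99, 9.33 and 8.89 in gated GFP-low cells. These groups did not overlap either, and the difference of 0.81 ± 0.26 did not pass the test (adjusted p = 0.164). Pard3 differed by 0.46 ± 0.16 (adjusted p = 0.229), Prkci by −0.0046 ± 0.17 (0.993) and Cdh2 by −0.15 ± 0.24 (0.864).

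The gated GFP difference was then set against the ungated one in a single fit. Gate, labelling kit and Gapdh 3' minus 5' difference largely coincide among these arrays, so their parts in the results cannot be told apart. Of the 10 members 5 differed between the 2 contrasts, 4 lower and 1 higher with the gate, where 7.7% of all genes were called. Pard3 (−1.26 ± 0.26, adjusted p = 0.00612), Ctnna1 (−1.40 ± 0.24, 0.00179) and Celsr1 (−1.66 ± 0.37, 0.00963) had a smaller excess in GFP-high cells with the gate than without it. Prkcz had a smaller deficit (1.29 ± 0.31, adjusted p = 0.0149), and Dsp had a deficit with the gate, where the ungated difference was −0.14 ± 0.37 (−1.57 ± 0.38, adjusted p = 0.0166). Of the 25 probe sets 1 was higher and 7 lower, where 4.87% of all probe sets were called. The count of called members was 5 when any 1 of the 13 E14 arrays was left out. Radial glia markers moved beside them: 10 of 12 had a smaller GFP difference with the gate and 0 a larger one, and 8 of 12 postmitotic neuron markers had a smaller deficit.

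**Figure D2:**
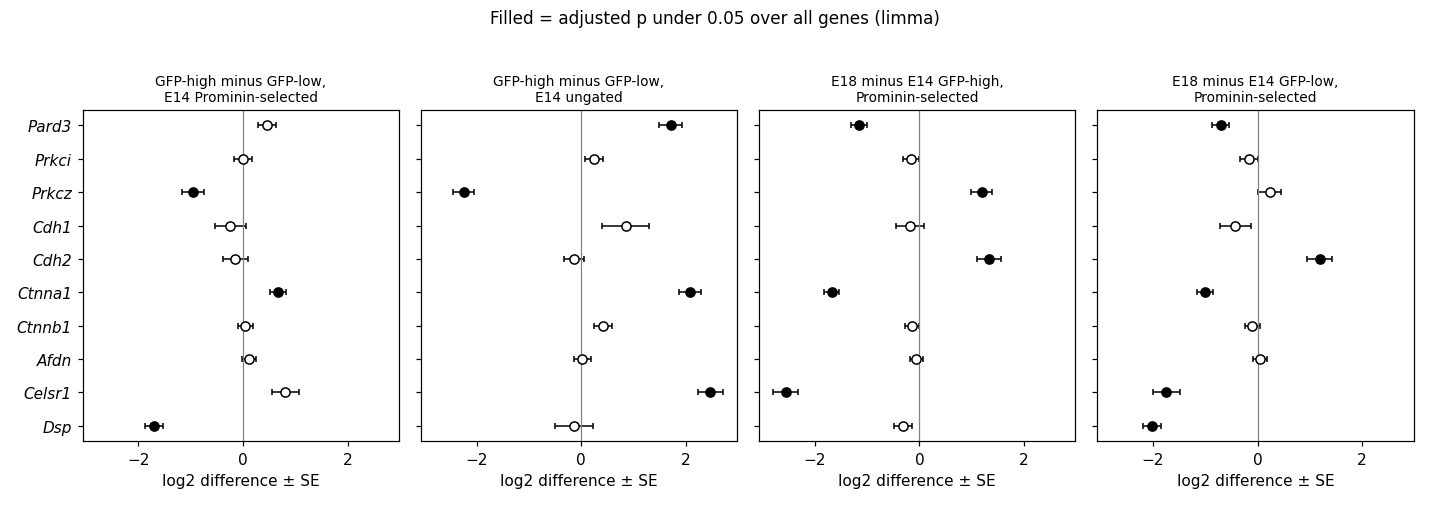
Log2 difference of each gene (x axis, with SE bars) in 4 comparisons (panels); filled points have an adjusted p under 0.05. Ctnna1, Celsr1 and Pard3 lie to the right in the ungated GFP contrast and to the left at E18, Cdh2 lies to the right at E18 only, and Prkci, Ctnnb1 and Afdn are open in all 4.

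Between ages, E18 cells had less Celsr1, Ctnna1 and Pard3 RNA and more Cdh2 RNA than either gated E14 group. Against gated GFP-high cells 5 of 10 members were called, 2 higher and 3 lower at E18, where 26.7% of all genes were called. Against gated GFP-low cells 5 were called, 1 higher and 4 lower, where 17.4% of all genes were called. Both comparisons use the same 4 E18 arrays. The E18 cells were sorted as GFP-positive and the E14 cells as GFP-high or GFP-low, so age and GFP gate cannot be told apart. The Gapdh 3' minus 5' difference also tended to be lower at E18, as given above. The members' median differences were −0.17 and −0.30, against −0.07 and −0.10 over all genes.

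Celsr1 had 6.55, 7.33, 7.85 and 7.58 on the E18 arrays, all below the 8.89 of the lowest gated E14 array. It differed by −2.55 ± 0.24 from GFP-high cells (5.87-fold lower, adjusted p = 1.09e-05) and by −1.74 ± 0.26 from GFP-low cells (3.35-fold lower, adjusted p = 0.000742). Replicate 2, at 6.55, was the lowest of the 4. Ctnna1 had 9.13, 9.01, 9.16 and 9.39 at E18, against 10.66 to 11.06 in gated GFP-high and 10.09 to 10.29 in gated GFP-low cells. The differences were −1.67 ± 0.14 (3.19-fold lower, adjusted p = 5.49e-06) and −0.9996 ± 0.15 (2.00-fold lower, adjusted p = 0.000946). Probe set 1437807_x_at gave −1.66 and −1.15 in the same 2 comparisons, and 1436631_at −0.50 and 0.02, the last 2 not called. Pard3 had 7.46, 7.63, 7.93 and 7.83 at E18, against 8.81 to 8.91 in gated GFP-high and 8.15 to 8.65 in gated GFP-low cells. It differed by −1.16 ± 0.15 (2.23-fold lower, adjusted p = 0.000136) and −0.70 ± 0.16 (1.63-fold lower, adjusted p = 0.0112). The second of these was lost without gated GFP-low replicate 2 (adjusted p = 0.0548).

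Cdh2 had 11.38, 11.19, 11.39 and 11.37 at E18, against 9.27, 10.05, 10.23 and 10.44 in gated GFP-high and 10.46, 9.99 and 9.98 in gated GFP-low cells. The E18 arrays were all higher, by 1.34 ± 0.23 (2.52-fold, adjusted p = 0.000837) and 1.19 ± 0.24 (2.28-fold, adjusted p = 0.00554). The second probe set, 1449244_at, rose by 0.57 ± 0.15 and 0.87 ± 0.16. In ungated E14 cells the brightest Cdh2 probe set lay at 11.32 to 11.65 with high GFP and 11.46 to 11.83 with low GFP. The second probe set lay at 10.50 to 10.76 and 10.32 to 10.55 in these groups, above its 9.63 to 10.14 at E18. No fit compared E18 with ungated cells, so the higher Cdh2 level at E18 is given against the gated E14 cells only. Prkci, Ctnnb1, Afdn and Cdh1 were called in neither comparison, with differences of −0.43 to 0.05. Ctnnb1, for instance, had 12.73 to 13.003 at E18, against 12.84 to 13.20 and 12.93 to 13.05 in gated GFP-high and GFP-low cells. Dsp was called against GFP-low cells only (−2.02 ± 0.18, adjusted p = 2.81e-05); against GFP-high cells the difference was −0.31 ± 0.16 (adjusted p = 0.196). Interneuron markers were higher at E18, all 7 of them in both comparisons. Their summed intensity was 2946 to 3349 at E18, against 286 to 546 and 432 to 691 in gated GFP-high and GFP-low cells. The summed intensity of 7 basal progenitor markers was 2878 to 3679 at E18, against 11143 to 13301 and 7757 to 8687, and 6 of 7 and 5 of 7 were lower. Of 12 radial glia markers 8 and 6 were lower and 2 and 3 higher, and of 12 postmitotic neuron markers 10 and 4 were higher and 0 and 1 lower, each with the GFP-high comparison first. The part of these markers in the members' differences was not tested.

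Prkcz differed between its probe sets at E18. The brightest, 1418085_at, had 8.34, 8.59, 8.23 and 7.73 at E18, against 6.74 to 7.30 in gated GFP-high cells, and rose by 1.19 ± 0.20 (2.28-fold, adjusted p = 0.000812). Against GFP-low cells, at 7.82 to 8.26, it differed by 0.23 ± 0.22 (adjusted p = 0.531). Probe set 1454902_at had 4.16 to 4.98 at E18, against 5.98 to 6.45 in gated GFP-high and 6.63 to 6.92 in gated GFP-low cells. It differed by −1.68 ± 0.20 from GFP-high cells (adjusted p = 7.58e-05 over probe sets) and by −2.36 ± 0.21 from GFP-low cells (adjusted p = 3.51e-05), lower in both. In the ungated E14 cells both probe sets were lower with high GFP, by −2.25 for 1418085_at and −1.67 for 1454902_at on the log2 scale. Their correlation over the 17 arrays was 0.06. With the mean of all 3 probe sets in place of the brightest, Prkcz differed by 0.03 (adjusted p = 0.926) against GFP-high cells and by −0.95 (adjusted p = 0.00609) against GFP-low cells, the direction opposite to that of the brightest probe set. A change of the Prkcz RNA as a whole at E18 is therefore not given here.

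**Figure D3:**
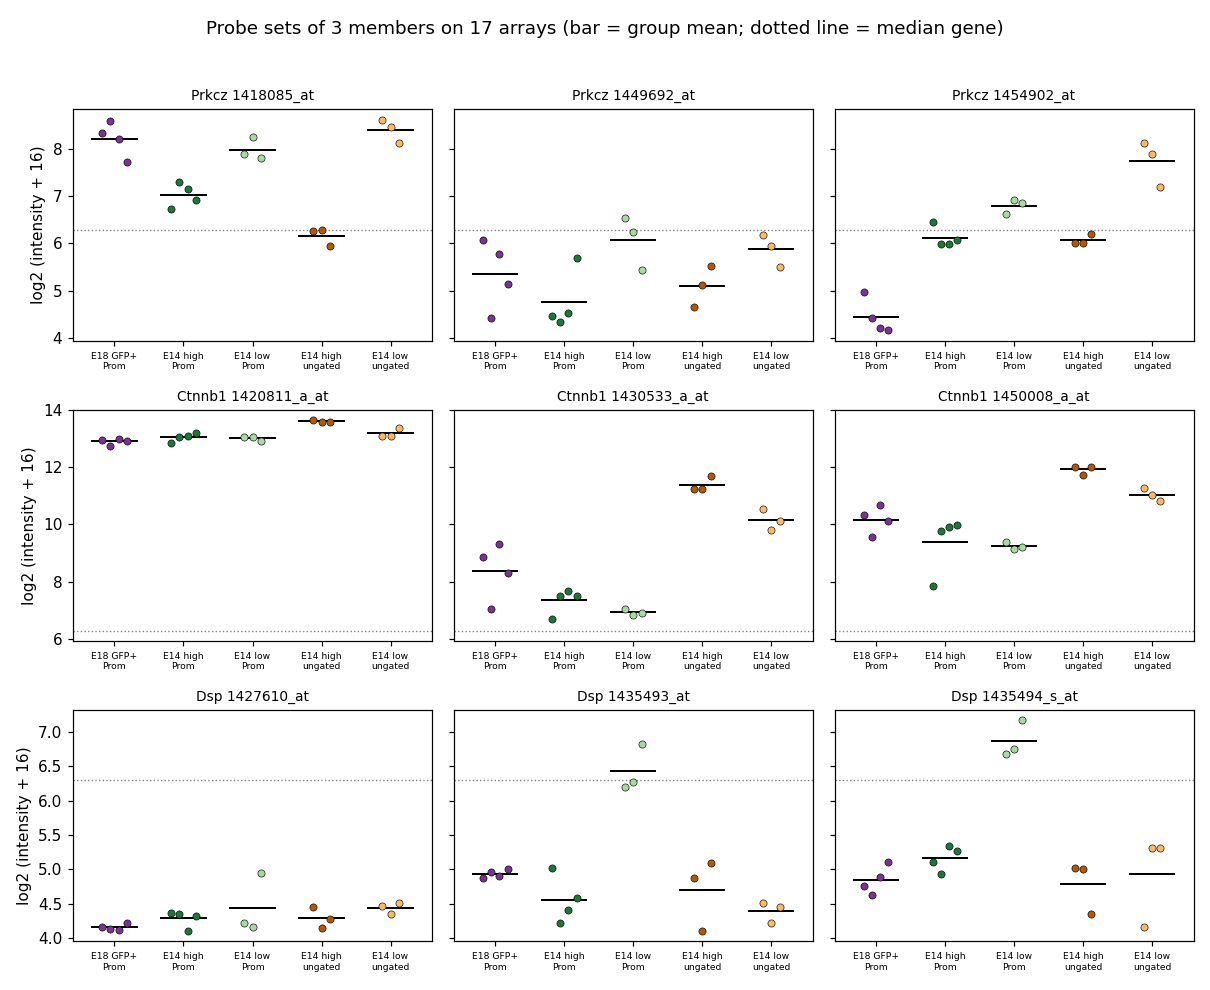
Level of every probe set of Prkcz, Ctnnb1 and Dsp on each array, as log2 of intensity plus 16 (y axis), by group (x axis); bars are group means and the dotted line is the median gene. Against gated GFP-high cells, Prkcz 1418085_at is higher at E18 (means 7.03 and 8.22) and 1454902_at lower (6.12 and 4.44). In both ungated groups 2 Ctnnb1 probe sets are higher than in the gated ones, and 2 of 3 Dsp probe sets stand out with their highest mean in gated GFP-low cells (6.86 and 6.43).

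At E18 against gated GFP-high cells 3 of the 25 probe sets were higher and 8 lower, where 23.3% of all probe sets were called. Against gated GFP-low cells 3 were higher and 8 lower, where 16.2% were called. All 4 Pard3 probe sets fell against GFP-high cells, with differences of −1.62 to −1.02. The higher ones against GFP-low cells were both Cdh2 probe sets and Ctnnb1 1430533_a_at (1.46 ± 0.43, adjusted p = 0.0351), where the Gapdh 3' minus 5' difference was −0.21 to 1.00 on the E18 arrays and 0.92 to 2.29 on the GFP-low ones. The part of that measure in the result was not tested.

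The Prominin gate was compared within each GFP level. In GFP-high cells 5 of 10 members were called, Prkcz higher in gated cells and Cdh2, Ctnna1, Ctnnb1 and Celsr1 lower, where 20.7% of all genes were called. In GFP-low cells 5 were called, Pard3, Ctnna1, Celsr1 and Dsp higher and Cdh2 lower, where 19.2% were called. Of the 25 probe sets 1 was higher and 9 were lower with the gate at high GFP, where 21.7% of all probe sets were called, and 8 were higher and 6 lower in GFP-low cells, where 19.6% were called. Cdh2 was lower in gated cells at both GFP levels, with differences of −1.50 ± 0.23 (2.83-fold lower, adjusted p = 0.000201) in GFP-high and −1.49 ± 0.24 (2.81-fold lower, adjusted p = 0.000545) in GFP-low cells. In gated GFP-low cells Pard3 was 2.34-fold higher (1.23 ± 0.19, adjusted p = 0.000385), with 8.44, 8.65 and 8.15 in gated against 6.89, 7.12 and 7.54 in ungated cells. Cell type markers also differed, given as counts higher and lower with the gate. Of 12 radial glia markers these were 0 and 7 in GFP-high cells, and 6 and 0 in GFP-low cells. Of 12 postmitotic neuron markers they were 7 and 0, then 0 and 8. Of 7 basal progenitor markers they were 0 and 3, then 5 and 1. Of 7 interneuron markers they were 6 and 0, then 5 and 0, and of 9 Cajal-Retzius markers 1 and 0, then 7 and 0. Their part in the members' differences was not tested.

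Gate, labelling kit and Gapdh 3' minus 5' difference largely coincide here. With the kit as a term, the comparison in GFP-high cells sets the 4 gated arrays against ungated replicate 1 alone, which is assumed to vary like the other groups. It called 2 members, Cdh2 at −1.65 and Cdh1 at −1.63. In GFP-low cells the gated and ungated arrays share no kit, so gate and kit cannot be told apart there. The term then takes its kit difference from the same single array, and it called 1 member, Pard3 at 1.47. With the Gapdh measure as a term, a choice made after seeing the data, Cdh2 alone was called in GFP-high cells (−1.90) and 4 members were called in GFP-low cells. For the fits with a kit or Gapdh term, no share of all genes called is given here. Some probe sets of a gene moved far more than others. Ctnnb1 1420811_a_at had 12.84 to 13.20 in gated GFP-high cells, against 13.56 to 13.65 in ungated GFP-high cells. Ctnnb1 1430533_a_at had 6.69 to 7.68 in gated GFP-high cells, against 11.23 to 11.68 in ungated GFP-high cells, a difference of −4.03 ± 0.39 (adjusted p = 2.78e-06 over probe sets). In GFP-low cells it differed by −3.23 ± 0.42. The second probe sets of Prkci (1448695_at, −1.53 ± 0.28) and Afdn (1431799_at, −1.19 ± 0.28) were likewise lower in gated GFP-high cells, where the main ones differed by −0.25 and 0.29. Between gated and ungated GFP-high cells these sets moved beside the Gapdh measure. At E18, where that measure was −0.21 to 1.00, Prkci 1448695_at lay at 4.48 to 5.92 and Afdn 1431799_at at 4.09 to 4.57. In ungated GFP-high cells these 2 lay at 6.93 to 7.18 and 5.15 to 5.50. Ctnnb1 1430533_a_at lay at 7.04 to 9.33 at E18. The part of the Gapdh measure was not tested. E-cadherin, Cdh1, lay at 4.07 to 6.13 on all 17 arrays, below the median gene, and was called in none of the 7 comparisons. The 6.13 was on ungated GFP-high replicate 1, against 4.94 and 5.08 on the other arrays of that group. The Cdh1 result with the kit as a term rests on that array.

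The rest of the junction and polarity machinery was read from 9 lists with 85 measured genes beside the 10 members. Among ungated E14 cells, GFP-high ones had 15 of the 85 above and 12 below GFP-low ones by the test, and among gated cells 1 above and 7 below. At E18, 11 were higher and 18 lower against gated GFP-high cells, and 8 higher and 16 lower against gated GFP-low cells. As shares of the 85 these are 31.8%, 9.41%, 34.1% and 28.2%, beside the shares of all genes given above.

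Of 8 other catenins and adaptors, 3 were higher and 1 lower in ungated GFP-high cells. The higher ones were Vcl, Plekha7 (1.37 ± 0.25) and the α-catenin relative Ctnnal1 (1.29 ± 0.27), and the lower one was Ctnna2. Ctnna2 encodes αN-catenin, the neuronal α-catenin. It had 8.18, 8.19, 8.01 and 7.80 in gated GFP-high cells, against 8.92, 9.43 and 8.71 in gated GFP-low cells (−0.97 ± 0.19, adjusted p = 0.032). It had 7.96, 7.47 and 7.47 in ungated GFP-high cells, against 10.27, 10.63 and 9.84 in ungated GFP-low cells (−2.61 ± 0.26, adjusted p = 0.00114). Neither pair of groups overlapped, and at E18 Ctnna2 was higher than in gated GFP-high cells (1.25 ± 0.18) while Ctnna1 was lower. Celsr3, the Celsr1 relative known for axon guidance, had 8.04, 7.71 and 7.83 in ungated GFP-high cells, against 9.35, 9.56 and 9.45 in ungated GFP-low cells (−1.59 ± 0.18, adjusted p = 0.00157). In gated cells its difference was −0.26 ± 0.26 (adjusted p = 0.74).

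Of the 16 planar polarity genes, gated GFP-high cells had 1 above and 4 below gated GFP-low cells by the same test, and ungated GFP-high cells had 2 above and 5 below ungated GFP-low cells. Its giant protocadherins split. Fat1 differed by 0.81 ± 0.15 in gated and 2.71 ± 0.28 in ungated cells, and Fat4 by −0.81 ± 0.16 and −1.84 ± 0.17. Prickle1, a cytoplasmic planar polarity protein, differed by −0.88 ± 0.16 and −2.67 ± 0.30. Among the 9 other cadherins, Cdh13, which is anchored by a lipid and lacks the catenin-binding tail, had 7.38, 7.90, 7.52 and 7.30 in gated GFP-high cells against 8.93, 9.10 and 8.93 in gated GFP-low cells (−1.46 ± 0.17), and differed by −3.78 ± 0.30 in ungated cells. Cdh11 differed by −1.07 ± 0.22 and −2.57 ± 0.21. In ungated cells 2 of the 9 were higher with high GFP, Cdh20 (1.75 ± 0.20) and Cdh8 (0.89 ± 0.23), beside these 2 lower ones.

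Of 8 Crumbs complex genes 3 were higher and 0 lower in ungated GFP-high cells, while the median difference of the 8 was −0.33, against −0.01 over all genes. Mpp5, which encodes the scaffold Pals1, had 8.60, 8.43 and 8.41 in ungated GFP-high cells against 6.88, 6.29 and 6.59 in ungated GFP-low cells (1.89 ± 0.20, adjusted p = 0.0015). Patj, a partner of Pals1, differed by 1.96 ± 0.30 and its relative Mpdz by 1.54 ± 0.31. In gated cells limma called 0 of 8 (1 at an unadjusted p under 0.05), and 3 of 8 were lower at E18 than in either gated E14 group and 1, Lin7c, was higher (1.34 ± 0.21 and 1.10 ± 0.23). Patj had 5.78 to 5.94 at E18, against 7.41 to 7.97 in gated GFP-high and 7.31 to 7.51 in gated GFP-low cells. Of 13 tight junction genes 4 were higher in ungated GFP-high cells: Cldn12 (2.09 ± 0.32), Jam2 (2.07 ± 0.20), Tjp1, which encodes the scaffold ZO-1 (1.48 ± 0.22), and Jam3 (1.40 ± 0.22). At E18 Cldn12, Jam2 and Jam3 were lower than in both gated E14 groups, and Tjp1 was not called (0.04 ± 0.16 and −0.02 ± 0.17).

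Of 8 Par and aPKC genes beside the members limma called 0 in either GFP contrast, with 1 in each at an unadjusted p under 0.05. At E18 the Par6 genes Pard6g (−1.16 ± 0.15 and −1.003 ± 0.16) and Pard6b (−0.81 ± 0.24 and −0.92 ± 0.26) and the Par3 relative Pard3b (−1.57 ± 0.19 and −1.12 ± 0.20) were lower than in gated GFP-high and gated GFP-low cells, while 2 of the 8 were higher than in gated GFP-high cells. Of the nectins, adhesion receptors that bind afadin, Nectin2 was lower (−1.23 ± 0.15 and −1.36 ± 0.16) and Nectin3 higher (0.87 ± 0.20 and 1.08 ± 0.22) at E18, while Afdn differed by −0.06 and 0.05. Vinculin (Vcl), which binds stretched αE-catenin, was higher in ungated GFP-high cells (1.87 ± 0.20) and lower at E18 against gated GFP-high cells (−0.69 ± 0.13). Of 8 Scribble and Lgl complex genes 2 were lower in ungated GFP-high cells, the synaptic scaffolds Dlg2 (−1.61 ± 0.32) and Dlg4 (−1.53 ± 0.41).

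**Figure D4:**
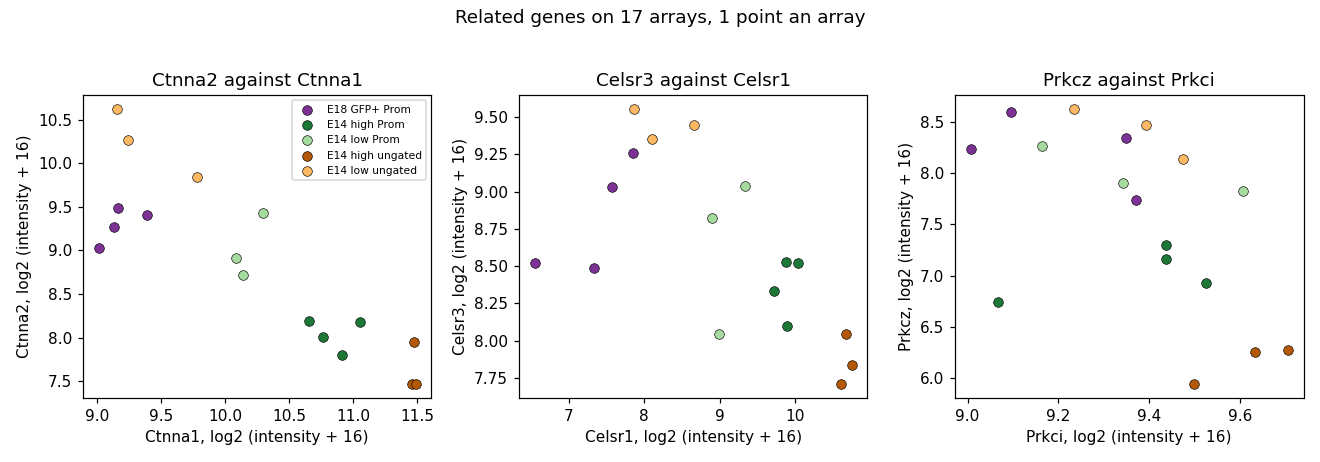
Levels of 3 pairs of related genes, as log2 of intensity plus 16 on both axes, 1 point an array, coloured by group. Ctnna2 and Celsr3 are highest in ungated GFP-low cells, where Ctnna1 and Celsr1 are low; Prkci covers 9.01 to 9.71 over all arrays, while Prkcz covers 5.94 to 8.62.

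The members with the widest range of group means were Celsr1 (3.35), Ctnna1 (2.30) and Prkcz (2.25). Over the 17 arrays, and among 9088 genes above the median gene, the genes closest to Celsr1 by Pearson correlation were Etl4 (0.980), Tgif2 (0.976) and Sox3 (0.975). Those closest to Ctnna1 were Sox3 (0.985), Ajuba (0.984) and Spata13 (0.984), and those closest to Prkcz were Stmn2 (0.974), Rbm24 (0.974) and Cnrip1 (0.972). Sox3 is a transcription factor of neural progenitors and Stmn2 a neuronal microtubule regulator. The arrays fall into 5 groups, and arrays of a group share its condition. Among group means Sox3 stood at 6.06 at E18, 8.94 and 7.73 in gated GFP-high and GFP-low cells, and 10.11 and 6.96 in ungated GFP-high and GFP-low cells. Stmn2 stood at 12.17 at E18, 9.80 and 11.54 in the gated pair, and 7.54 and 12.37 in the ungated pair. For Celsr1 the order of group means was ungated GFP-high, gated GFP-high, gated GFP-low, ungated GFP-low and E18, and no 2 neighbours overlapped. Ctnna1 had the same order, with ungated GFP-low and E18 overlapping.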

How the data were processed

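Gene expression was measured on 17 Affymetrix mouse arrays, 1 per sample of total RNA, extracted with an RNeasy kit and labelled with biotin, per the labels. The deposited table gives the authors' intensity values, 1 linear signal per probe set; the software that summarised them is not given in the sources used here. Medians of the deposited intensity values were 24.2 to 45.1 per array, 0 pairs of arrays were identical, and precision is limited by how many arrays there are. The 64 control probe sets were dropped, and of the 45037 others 34945 had 1 gene symbol, 932 several (0 naming a member) and 9160 none in the platform annotation, which can be old. Values were set to log2 after adding 16 and quantile-normalised. Understated folds of dim genes follow from that pseudocount. The fits used limma 3.58.1 in R 4.3.3 (lmFit, eBayes, two-sided, Benjamini-Hochberg over all genes): contrasts among gated groups on 11 arrays, the ungated GFP contrast on 6 arrays, the others on all 17. The fit was tested on simulated data. Figures used Python 3.11.15 and matplotlib 3.10.9.

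Named genes beside the members were, up to 4 a list by the lowest p of the ungated contrast, those called in a GFP contrast or in both E18 contrasts, the 3 genes closest to each of the 3 widest-ranging members, and cell type markers that moved beside a result. The text leaves some of these out, a choice made after their values were seen, and names Ttr outside the rule. The members and lists were chosen with earlier results of these data known. Listed genes without a value are not reported here. The alternatives were pseudocounts of 1 and 64, no quantile normalization, the dimmest 40% of genes left out, the mean of a gene's probe sets, a replicate block, the labelling kit as a term, other arrays in the fit, each array left out and, added after seeing the data, the Gapdh 3' minus 5' difference as a term. Nothing in the labels shows that the replicates are from different litters or cultures, and the p-values then reflect the spread of these samples alone, part of which may be technical.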

Additional observations from a re-analysis of the deposited data

Results flagged for a closer look

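For 5 members the GFP-high minus GFP-low difference at E14 was not the same in gated and ungated cells. This is by limma's test of the difference between the gated and the ungated contrast. Gate and labelling kit largely coincide there, so their parts cannot be told apart. The values, gated minus ungated on the log2 scale, were −1.26 for Pard3, 1.29 for Prkcz, −1.40 for Ctnna1, −1.66 for Celsr1 and −1.57 for Dsp. The direction was the same in all alternatives run, and the call was lost for Dsp with a pseudocount of 1 (adjusted p = 0.211) and for Prkcz with the mean of its probe sets (0.328).

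Dixon's ratio sets the gap between an outermost array and the next against the range of the group. By it a single array stood apart from the other 3 for 5 of the 50 combinations of a probe set and a group of 4 arrays. With normally spread values chance gives about 1 in 20, and values near 4 need not spread so. The ratio does not measure how large the gap is. In gated GFP-high cells, Ctnnb1 1450008_a_at was at 7.844 on replicate 1, against 9.783 to 9.998 on the others. In the same group Cdh1 was at 5.456 on replicate 2, against 4.155 to 4.189, Prkcz 1449692_at at 5.695 on replicate 4, against 4.339 to 4.523, and Dsp 1427610_at at 4.105 on replicate 3, against 4.329 to 4.365. At E18 Cdh2 was at 11.19 on replicate 3, against 11.37 to 11.39. The 4 gated GFP-high values lie on 4 different arrays.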

How the results depend on the processing

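The gated E14 GFP contrast was the least stable: the 3 members called became 1 (Dsp) with a pseudocount of 1, without quantile normalization, with the replicate block, on the compared groups alone, with the Gapdh 3' minus 5' term, and 1 to 1 when each array was left out. Against gated GFP-low cells E18 had 5 members called and 3 with the replicate block, which lost Pard3 and Cdh2. Between gated and ungated cells, the 5 members called in GFP-high cells became 2 with the labelling kit and 1 with the Gapdh measure as a term, and the 5 in GFP-low cells became 1 with the kit and 3 on the compared groups alone. With each array left out, 4 to 4 members were called in the ungated GFP contrast, 5 to 5 in the difference of the GFP contrasts and at E18 against gated GFP-high cells, and 4 to 5 in the other 3 comparisons. Celsr1 between gated and ungated cells was called in 1 of 7 such fits in GFP-high and 2 of 6 in GFP-low cells.

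Among the member values under an alternative, 987 kept their direction and side of the threshold, 60 lost their call, 7 gained one and 52 turned round. Of those 52, 2 were called under the alternative and none in the report's own fit, whose values there were at most 0.290 in size. The 2 were Prkcz at E18 against gated GFP-low cells (−0.951, adjusted p = 0.00609, against 0.23) and Prkci between gated and ungated GFP-low cells (−0.562, adjusted p = 0.0197, against 0.0035), both with the mean of a gene's probe sets.

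With that mean, values that turned round without a call were, for the gated GFP contrast, 0.0599 for Prkci and 0.0787 for Cdh2, and for the ungated one 0.0545 for Cdh2 and 0.00548 for Dsp. At E18 against gated GFP-high cells they were 0.558 for Ctnnb1 and 0.0237 for Afdn, and against gated GFP-low cells 0.757 for Ctnnb1. Between gated and ungated cells they were 0.0663 for Pard3 and −0.450 for Afdn at high GFP and −0.245 for Afdn at low GFP. For the difference of the GFP contrasts they were 0.0242 for Cdh2 and −0.205 for Afdn. With the Gapdh term, Prkci came to 0.0612 in the gated GFP contrast, 0.0738 and 0.135 at E18 against gated GFP-high and GFP-low cells, and −0.372 for the gate at low GFP. Cdh1 came to 0.0794 at E18 against gated GFP-high cells and −0.395 for the gate at low GFP, Afdn to −0.0168 at E18 against gated GFP-low cells, and Pard3 to 0.193 for the gate at high GFP. With the kit term, Pard3 came to 0.135 for the gate at high GFP, Prkci to −0.0268 and Cdh1 to −0.909 for the gate at low GFP, and Cdh2 to 0.0658 for the difference. Without quantile normalization, Afdn came to −0.00148 in the ungated GFP contrast and −0.0585 at E18 against gated GFP-low cells, and Cdh2 to 0.0436 for the difference. With the replicate block, Ctnnb1 came to −0.00922 in the gated GFP contrast.

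With each array left out, values crossed 0 for Prkci (−0.108 to 0.113), Cdh2 (−0.294 to 0.0948) and Ctnnb1 (−0.0114 to 0.107) in the gated GFP contrast, and for Afdn (−0.0189 to 0.0715) and Dsp (−0.522 to 0.0848) in the ungated one. They also did for Cdh1 at E18 against gated GFP-high cells (−0.295 to 0.139), for the gate in Pard3 at high GFP (−0.109 to 0.0334) and in Prkci (−0.114 to 0.107) and Cdh1 (−0.0029 to 0.629) at low GFP, and for Cdh2 in the difference (−0.158 to 0.232). The cause was not tested.

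The replicate numbers were not taken to pair the samples. Deviations of arrays with the same number correlated at −0.144 to 0.040 over 27 pairs. These were not set against pairs with different numbers, so they do not settle whether the numbers pair the samples. The replicate block is given here only. It left the counts in the other 5 comparisons at 4 to 5. Leaving out quantile normalization moved the median of all genes by just over 0.1 at E18 against gated GFP-high cells (0.04, against −0.07). Dsp and Cdh1 were among the dimmest 40% of genes and had no value with those left out.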
